A study of Homo sapiens with 8 samples.

Results

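The genes described here are 6 epithelial identity genes, CLDN7, OCLN, ELF3, ESRP2, AGR2 and SERPINB5, followed by RNA sequencing in MDA-MB-231, an established line from a human triple-negative breast cancer. They were found by gene symbol in the authors' deposited tables, where all 6 occur among 2998 listed genes. The study has 8 samples in 4 groups of 2. One group was left without treatment, and the others received unmodified brazilin, methylated brazilin or acetylated brazilin, each at 20 µM for 48 h, added when the cells were seeded and replaced every day. Whether the untreated cells were given the solvent is not stated in the sources used here. Brazilin is a phenolic compound of sappanwood, and the derivatives carry methyl or acetyl groups by their labels. Each of the 3 tables sets 1 compound against the untreated samples, which all comparisons share, and lists the genes that the authors called. For each such gene there is a mean FPKM per group (fragments scaled by transcript length and by the number mapped), a log2 fold change of treated over untreated, and a q-value.

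Epithelial cells seal their sheet with tight junctions, in which claudins form the barrier strands and occludin sits beside them. Transcription factors of the ETS and Grainyhead families help to keep the epithelial program on, and the ESRP proteins direct splicing towards epithelial isoforms. Snail and ZEB factors repress many of these genes by binding E-boxes in their promoters during an epithelial-mesenchymal transition. MDA-MB-231 cells are usually classed as mesenchymal-like, and the levels of these genes in untreated cells are given below.

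Brazilin lowered 3 of the genes and raised 2, acetylated brazilin lowered 1, and the methylated brazilin table holds none of them. CLDN7, OCLN and AGR2 fell with brazilin, ESRP2 and SERPINB5 rose with it, and ELF3 fell with acetylated brazilin in the authors' deposited tables. Each gene stands in 1 table only, so no gene can be compared between compounds, and being absent from a table means that the authors' criteria were not met, not that the level was the same. The criteria appear to be a q-value under 0.05 and an absolute log2 fold change of at least 0.5. In all, 2885 genes are listed for brazilin, 193 for acetylated brazilin and 11 for methylated brazilin. Of the genes that RefSeq annotates as protein-coding, 14.3% are listed for brazilin, 0.933% for acetylated brazilin and 0.0549% for methylated brazilin. Among listed genes 52.4% are lower with brazilin and 47.6% higher, while 37.8% are lower and 62.2% higher with acetylated brazilin. When the log2 ratio of FPKM means is used, again with a minimum of 0.5, 41.6% of the listed genes that pass count as lower with brazilin and 58.4% as higher. With 3 lower of 5 listed, the direction of the epithelial genes is near that of the whole brazilin table.

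The files give no value for a single sample, so neither the spread between the 2 samples of a group nor the depth is known. The 95% intervals below rest on standard errors worked back from the q-values. Such an error is at least as large as the true one if the test was an unshrunken Wald test. The intervals make no allowance for the choice of significant genes, and none can include no change, as every listed q-value is under 0.05. The labels do not say whether the 2 samples of a group are separate cultures, so the spread behind the q-values may be technical. In a bulk sample, fewer cells with a transcript and less of it per cell cannot be told apart. All FPKM, fold changes and q-values of single genes were taken from the authors' deposited tables.

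**Figure D1:**
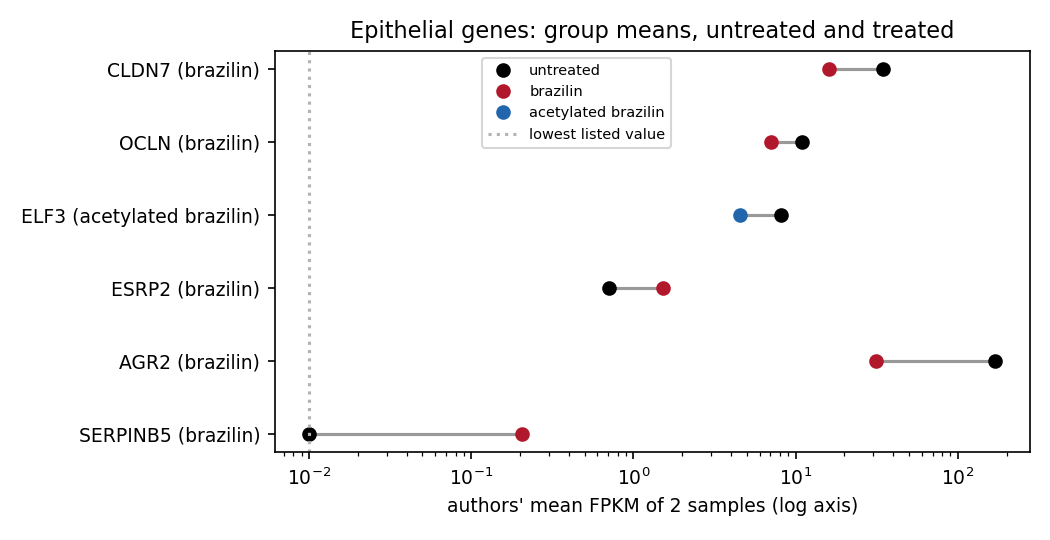
Mean FPKM of the 6 genes (log axis) in untreated cells (black) and in cells given brazilin (red) or acetylated brazilin (blue), as the authors' means of 2 samples, with a dotted line at the lowest listed value of 0.01. AGR2, CLDN7, OCLN and ELF3 lie lower after treatment, and ESRP2 and SERPINB5 lie higher and near or under 1 FPKM.

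The untreated levels, which FPKM scales by transcript length, ranged widely. AGR2 was highest at 171 FPKM, above 97.4% of the genes listed for brazilin, followed by CLDN7 at 34.7 FPKM, OCLN at 10.9 FPKM, ELF3 at 8.14 FPKM and ESRP2 at 0.705 FPKM. SERPINB5 was listed at 0.01 FPKM, the lowest value that occurs. Without values per sample it cannot be said which neighbours in this order differ beyond their spread. Epithelial markers chosen as a check of the cell type are mostly without a value. Of 15 such markers 6 are listed in any table, the members CLDN7, OCLN, ELF3 and ESRP2 and the genes ESRP1, at 0.74 FPKM, and CLDN3, at 2.13 FPKM, while E-cadherin (CDH1), EPCAM and the simple keratins KRT8, KRT18 and KRT19 are not listed. Of 11 mesenchymal markers 4 are listed, FN1, CDH11, SNAI1 and SNAI2, and their untreated levels were mixed. FN1, at 356 FPKM, and CDH11, at 57.05 FPKM, were above every listed epithelial marker. SNAI1, at 1.37 FPKM, and SNAI2, at 4.565 FPKM, were under CLDN7, OCLN and ELF3. Vimentin (VIM) and the ZEB genes are not listed, so the mesenchymal-like description could be checked only in part.

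Promoter sequence is shown for the members because Snail-type repressors bind E-boxes. Whether they act on these genes was not tested. The 250 bases before each RefSeq transcript start (GRCh38.p14) were searched for CAGGTG and CACCTG, which are the same site read on either strand. RefSeq windows were at hand for 5 of the 6 genes, 7 windows in all, since CLDN7 and OCLN have 2 starts each. ESRP2 (chr16:68229033-68236127) has none here. The site was present in 5 of the 7 windows, against 17.5% of all 35116 windows. It was present in 16.7% of the windows of genes listed lower with brazilin and in 16.3% of those listed higher. Windows of the same gene are not independent, and GENCODE exons cover parts of the windows with a site. The downstream CLDN7, upstream OCLN, ELF3 and SERPINB5 windows have no long exon-free stretch. In the downstream OCLN window 120 bases are exonic, and its site spans the end of that exonic stretch. CLDN7 has 4 sites before its downstream start at position 7262478 of chromosome 17 and none before its upstream start at 7263213, and 43 of all windows have 4 or more. The AGR2 window has none. A match describes the letters only and shows no binding. In the lines below each site is given 5′ to 3′ on the strand of its gene, with the E-box in capitals.
CLDN7, first pair of sites, chr17:7262479-7262504, minus strand: tatactCAGGTGcgcccCACCTGtcc
CLDN7, next site upstream, chr17:7262596-7262625, minus strand: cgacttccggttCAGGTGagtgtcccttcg
CLDN7, farthest site, chr17:7262635-7262664, minus strand: tttcttcctcctCACCTGggcaaggagggg
OCLN, before the upstream start, chr5:69492502-69492531, plus strand: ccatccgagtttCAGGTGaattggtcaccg
OCLN, before the downstream start, chr5:69492645-69492674, plus strand: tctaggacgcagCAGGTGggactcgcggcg
ELF3, chr1:202010455-202010484, plus strand: gaatatgcaaatCACCTGgggccaggagcc
SERPINB5, chr18:63476920-63476949, plus strand: ggcggtgctgccCAGGTGagccaccgctgc

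The windows without a site are shown for contrast, as far as no GENCODE exon covers them. The AGR2 stretch is AT-rich, and its whole window has 40.4% G and C and 3 CpG dinucleotides, fewer than the median of 11 over all windows. The downstream CLDN7 window holds 25 CpG dinucleotides and the upstream OCLN window 24, whereas ELF3 has 4. Of the 2 genes with the highest untreated levels, AGR2 lies under the median of 11, while CLDN7 lies above it at its downstream start only. The upstream CLDN7 window holds 9 CpG dinucleotides, more than the 3 of AGR2 but also under the median. Which CLDN7 start the cells use is not known.
AGR2, chr7:16805081-16805249, minus strand: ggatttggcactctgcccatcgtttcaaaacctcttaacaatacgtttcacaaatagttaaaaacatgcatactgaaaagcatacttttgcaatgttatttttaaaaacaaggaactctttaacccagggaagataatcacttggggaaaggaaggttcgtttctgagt
CLDN7, upstream start, chr17:7263214-7263463, minus strand: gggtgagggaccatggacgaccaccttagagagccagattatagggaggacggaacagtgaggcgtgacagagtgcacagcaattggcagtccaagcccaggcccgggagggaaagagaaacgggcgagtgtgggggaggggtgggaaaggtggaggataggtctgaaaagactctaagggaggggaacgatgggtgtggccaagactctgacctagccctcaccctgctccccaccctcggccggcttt

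Both tight junction genes among the members fell with brazilin. CLDN7 (chr17:7259903-7263213), a claudin of the barrier strands that is also found along the lateral membrane of epithelial cells, went from 34.7 to 16.0 FPKM. Its log2 fold change was -1.20 (interval -1.40 to -1.01, q = 4.49e-33), a 2.30-fold fall. OCLN (chr5:69492547-69558104), which encodes occludin, went from 10.9 to 7.045 FPKM, with a log2 fold change of -0.80 (interval -0.98 to -0.62, q = 1.21e-17). The intervals of both genes do not overlap, CLDN7 having fallen further. Among the 1511 genes lower with brazilin, CLDN7 ranks at place 159 and OCLN at place 489 by the size of the change. OCLN shares 676 of 1566 coding bases at 99.7% identity with the transcribed pseudogene OCLNP1, so its reads may be divided between both. CLDN7 shares 223 of 633 coding bases at 100% identity with the GENCODE gene AC003688.1, and the same holds for it. CLDN7 also overlaps the neighbouring gene ELP5 by 38 bases, and ELP5 was higher, at 19.3 and 30.7 FPKM.

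Other tight junction and polarity genes moved both ways with brazilin. Of 42 genes on the tight junction list 9 are listed (21.4%), 6 lower and 3 higher, with a median log2 fold change of -0.75 against -0.51 over the whole table. For this list and those below, the shares over all genes are 14.3% of protein-coding genes listed with brazilin. Of all listed genes 52.4% are lower and 47.6% higher. MAGI1, a junction scaffold, fell from 16.5 to 8.73 FPKM, and PATJ, a scaffold of the Crumbs polarity complex, from 2.18 to 1.225 FPKM. AMOTL2 and AMOTL1, angiomotin family scaffolds, went in opposite directions, AMOTL2 from 25.6 to 45.6 FPKM and AMOTL1 from 13.0 to 10.3 FPKM. Apart from CLDN7 the claudins listed are at low levels. CLDN6, named after its value was seen, was listed at 0.01 FPKM untreated and 0.235 FPKM with brazilin, and CLDN3 rose from 2.13 to 3.98 FPKM with acetylated brazilin (log2 0.90, interval 0.27 to 1.53). CLDN7 and CLDN3, both barrier-type claudins, are thus listed in opposite directions, but for different compounds.

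Adherens junction and desmosome genes also moved both ways. Of 27 genes 5 are listed with brazilin (18.5%), 3 lower and 2 higher, with a median log2 fold change of -0.72. JUP, the plakoglobin gene shared by both junction types, fell from 55.3 to 35.2 FPKM, AFDN, the nectin-binding afadin gene, from 12.7 to 8.205 FPKM, and PPL, which encodes periplakin, from 5.845 to 3.69 FPKM. EVPL, the gene of periplakin's partner envoplakin, rose from 4.075 to 7.68 FPKM, and NECTIN1, a nectin adhesion receptor gene, from 0.995 to 2.28 FPKM. None of these genes is listed for acetylated or methylated brazilin.

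**Figure D2:**
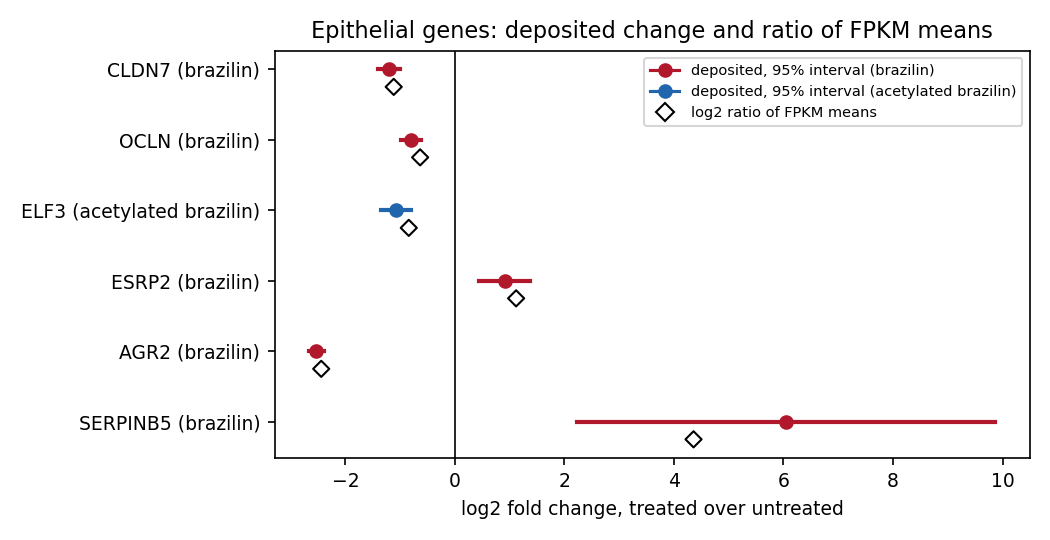
Log2 fold change of the 6 genes, treated over untreated, as deposited (filled circles with 95% intervals, red for brazilin and blue for acetylated brazilin) and as the ratio of the authors' FPKM means (open diamonds). No interval can reach 0, because each rests on a q-value under 0.05. That of SERPINB5 runs from 2.22 to 9.87, and the diamond of ELF3 lies nearer to 0 than its circle.

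ELF3 (chr1:202010587-202017183), an ETS transcription factor of epithelial cells, is the 1 member listed for acetylated brazilin. It went from 8.14 to 4.54 FPKM, and its deposited log2 fold change was -1.08 (q = 7.85e-15). It ranks at place 8 by size among the 73 genes lower with this compound, and 5.70% of the listed genes fell at least 2-fold. The deposited change is larger than the FPKM means give. Their ratio is -0.84 on the log2 scale, a 1.79-fold fall against 2.12-fold as deposited. The gap of -0.24 is the second most negative among the 193 genes, whose median gap is -0.01. The cause of the gap was not tested. Acetylated brazilin therefore lowered ELF3 by either measure, but it is past 2-fold only by the deposited one. ELF3 shares 114 of 1113 coding bases at 100% identity with the GENCODE gene AL691482.3, so its reads may be divided between both.

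ELF3 is not listed for brazilin, and other epithelial transcription factors went both ways there. Of 25 genes on that list 7 are listed with brazilin (28.0%), 4 higher and 3 lower, with a median log2 fold change of 0.72. That median rests on GRHL1, which stayed under 1 FPKM, and with a minimum of 1 FPKM it is 0.11, with 3 genes higher and 3 lower. TP63, which encodes the p63 factor of basal epithelial cells, was at 0.70 FPKM untreated and at 3.33 FPKM with brazilin (log2 2.18, interval 1.86 to 2.49). KLF5 rose as well, from 12.5 to 21.8 FPKM. TFAP2C, an AP-2 factor gene of the luminal lineage, fell from 19.1 to 12.4 FPKM, and SOX9 fell from 21.8 to 16.3 FPKM. Both listed epithelial keratins of 20 (10.0%) are keratins of basal epithelium and rose, KRT17 from 1.735 to 8.095 FPKM and KRT14 from 0.05 to 0.51 FPKM, and KRT14 shares a stretch of its coding sequence with KRT16. In ELF3's own family 7 of 28 ETS genes are listed with brazilin (25.0%), 5 of them lower, with a median log2 fold change of -0.59. ETV1 fell from 33.5 to 15.8 FPKM, ETV6 from 12.6 to 7.935 FPKM and ETV5 from 31.8 to 22.3 FPKM, whereas ETS2 was higher, at 15.3 untreated and 26.5 FPKM treated.

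ESRP2 and its paralog ESRP1, RNA-binding proteins that together set epithelial splicing, went in opposite directions with brazilin. ESRP2 rose from 0.705 to 1.53 FPKM (log2 0.91, interval 0.44 to 1.38, q = 1.54e-04). ESRP1 fell from 0.74 to 0.32 FPKM (log2 -1.29, interval -2.00 to -0.59, q = 3.37e-04). The untreated levels of both genes were close, so ESRP2 went from slightly under ESRP1 to well above it. Both stayed under 2 FPKM, where few reads may stand behind a value, and 227 bases of ESRP2 overlap NFATC3, which is not listed. Of 28 splicing regulators on the list 6 are listed with brazilin (21.4%), 3 lower and 3 higher. RBFOX2, a regulator of mesenchymal splicing events, fell from 31.8 to 23.6 FPKM and CELF2 from 6.04 to 4.875 FPKM. KHDRBS3, a STAR family RNA-binding protein gene, rose from 5.73 to 11.7 FPKM and RBM24, a regulator of muscle splicing, from 10.5 to 16.6 FPKM. By the ratio of FPKM means only ESRP1 remains at least 0.5 lower on this list.

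The largest fall among the members was that of AGR2 (chr7:16791811-16804999), a disulfide isomerase of the endoplasmic reticulum that mucus-secreting epithelia use to fold mucins. Brazilin took it from 171 to 31.4 FPKM, a 5.77-fold fall, with a log2 fold change of -2.53 and a q-value listed at 0. It ranks at place 12 of the 1511 falls, and 9.60% of the listed genes fell at least 2-fold. Its neighbour and paralog AGR3, 49.7 kb away, is not listed. The interval of AGR2 ends at -2.39 and lies below those of CLDN7 and OCLN, so its fall was larger than theirs by more than the derived errors.

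Listed genes of AGR2's enzyme family and of secretory epithelium were mostly lower as well. Of 23 protein disulfide isomerase genes 9 are listed with brazilin (39.1%), 8 lower and 1 higher, against 52.4% lower in the table. Without AGR2 there were 7 lower and 1 higher, with a median log2 fold change of -0.81. PDIA4 fell from 480 to 213 FPKM, PDIA3 from 276 to 154 FPKM, PDIA6 from 302 to 170 FPKM and DNAJC10, the reductase ERdj5, from 15.0 to 7.69 FPKM. PDIA3 has a near-identical pseudogene, PDIA3P1, and is uncertain. The exception, TXNDC16, named after its value was seen, was higher at 1.58 and 2.72 FPKM. Of 34 mucosal and luminal secretory genes 10 are listed (29.4%), 8 lower and 2 higher, and without AGR2 the median was -1.16. The mucin genes MUC5B and MUC5AC fell from 2.015 to 0.575 FPKM and from 1.675 to 0.78 FPKM, and BHLHA15, a transcription factor gene of secretory cells, from 19.3 to 8.935 FPKM. LCN2, which encodes the siderophore-binding protein lipocalin 2, fell from 650 to 231 FPKM with brazilin and from 650 to 413 FPKM with acetylated brazilin, in comparisons that share their untreated samples. AGR2 fell further than every other listed gene of either list.

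SERPINB5 (chr18:63476958-63505085) encodes maspin, a serpin of breast epithelium and myoepithelium that does not inhibit proteases. It was listed at 0.01 FPKM untreated and at 0.205 FPKM with brazilin (q = 0.00194). No fold is given, because the untreated value is the lowest that the tables hold. The deposited log2 fold change of 6.05 and the log2 ratio of means of 4.36 both rest on that value. It is 1 of 50 brazilin genes listed at 0.01 FPKM untreated, whose treated means run from 0.025 to 4.12 FPKM with a median of 0.155 FPKM. A mean of 0.205 FPKM would also arise from 1 sample at 0.01 and the other at 0.40 FPKM, so it is not known whether both treated samples held the transcript. Of its 13 clade B relatives, itself included, 4 are listed (30.8%), 2 higher and 2 lower. SERPINB2, the plasminogen activator inhibitor 2 gene, lies 383 kb away in the same cluster and rose from 0.835 to 12.1 FPKM (log2 3.77, interval 3.39 to 4.14). The elastase and cathepsin inhibitor genes SERPINB1 and SERPINB6 fell, from 48.5 to 34.4 FPKM and from 85.4 to 58.1 FPKM. SERPINB2 shares 549 coding bases with transcripts annotated to SERPINB10.

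**Figure D3:**
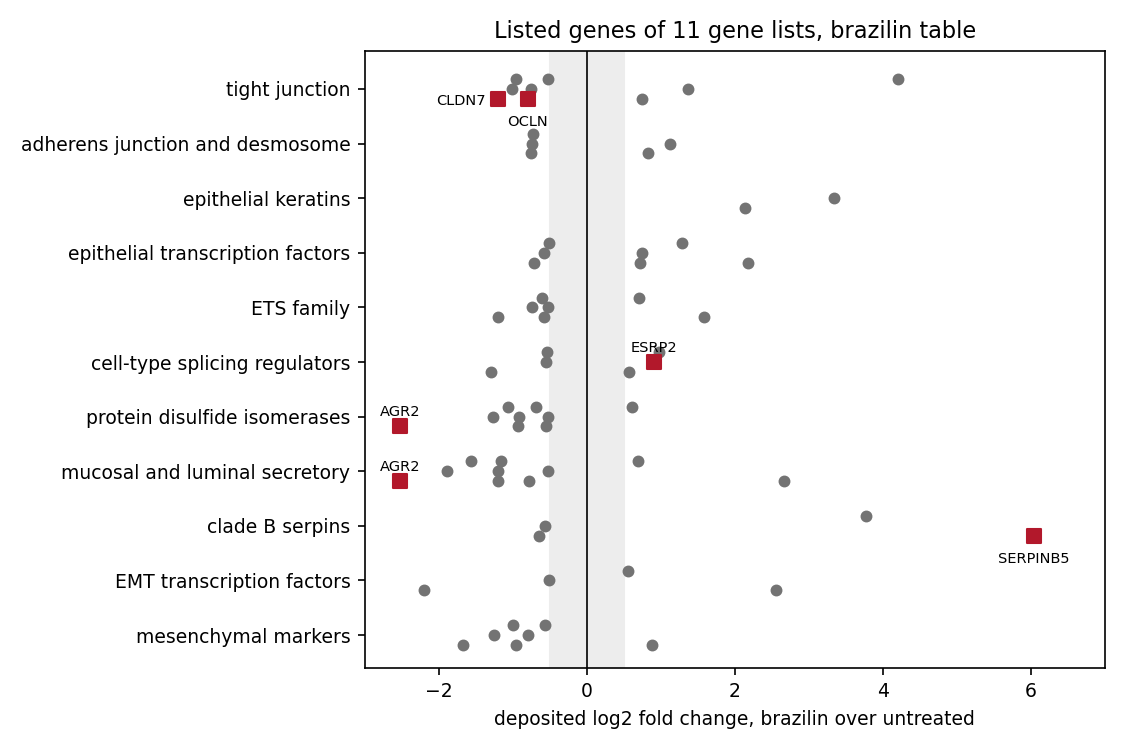
Deposited log2 fold change, brazilin over untreated, of every listed gene of 11 gene lists (grey circles), with members as red squares and the range under 0.5, which no listed gene can enter, shaded. AGR2 lies at -2.53, left of all other genes of its 2 lists, and the tight junction, splicing and transcription factor lists have genes on both sides.

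Listed mesenchymal genes were mostly lower with brazilin too. Of 32 mesenchymal markers 7 are listed with brazilin (21.9%), 6 lower and 1 higher, with a median log2 fold change of -0.96. Over all genes, 14.3% of protein-coding genes are listed with brazilin, and 52.4% of the listed genes are lower. FN1, the fibronectin gene, fell by 1.67 on the log2 scale, CDH11, a mesenchymal cadherin gene, fell by 1.26, TNC, which encodes tenascin C, by 0.96 and LOX, the lysyl oxidase gene, by 1.00. Of 18 genes for transcription factors of the epithelial-mesenchymal transition 4 are listed (22.2%), 2 higher and 2 lower. SNAI1, the E-box repressor Snail, rose from 1.37 to 8.60 FPKM and its relative SNAI2 from 4.565 to 7.125 FPKM. SOX4 fell from 31.5 to 7.295 FPKM, and also with methylated brazilin to 18.9 FPKM. HMGA2 was deposited with a log2 fold change of -0.52, yet its FPKM was 32.2 untreated and 31.4 treated (ratio -0.03 on the log2 scale), so whether it fell is uncertain. In the same comparison CLDN7 and OCLN, with E-boxes in the windows above, were lower, SERPINB5, which also has one, was higher, and AGR2, which has none, fell most. Any relation to SNAI1 was not tested.

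Markers of other cell types were listed with brazilin as well. Of 12 leukocyte markers 4 are listed (33.3%), all higher, with CD68 at 50.8 and 81.6 FPKM and ITGAM, CSF1R and CD79A between 0.055 and 0.495 FPKM in both groups. The pan-leukocyte gene PTPRC is not listed, and CD68 shares its coding sequence with a readthrough transcript. Of 9 endothelial markers KDR was higher, at 0.595 and 1.13 FPKM, and PECAM1 lower, at 1.345 and 0.905 FPKM. Their part in the changes of the epithelial genes was not tested.

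The direction of a gene in the brazilin table went with the length of its transcript, and the members did not all follow that trend. In 5 classes of length, the share of genes lower rose from 31.4% in the shortest to 78.4% in the longest class. CLDN7, with a transcript of 1542 bases, and AGR2, with 782 bases, fell although they belong to the shortest class. OCLN, with 6438 bases, fell like most of the longest class. ESRP2 and SERPINB5, with 3386 and 2783 bases, rose in a class where 51.1% of genes were lower. The part of length in these changes was not tested.

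**Figure D4:**
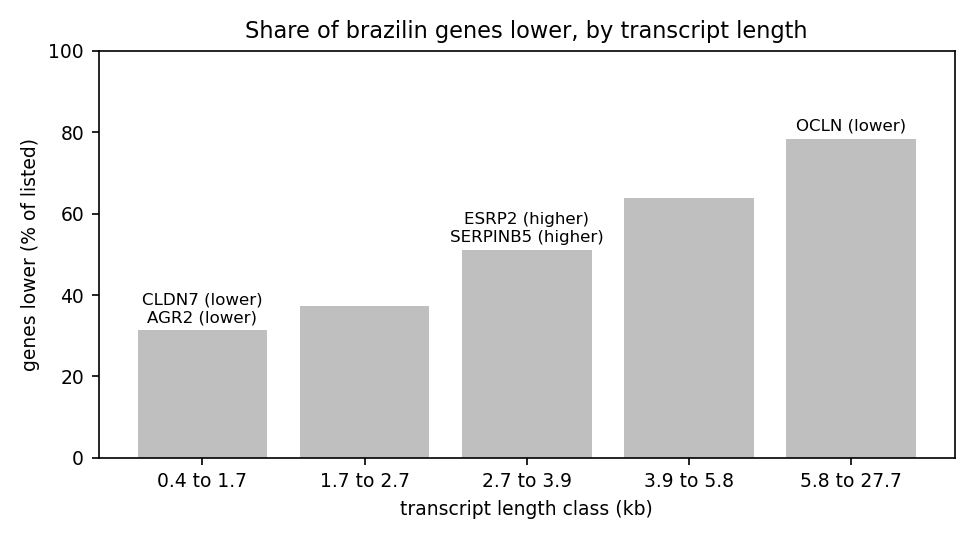
Share of listed brazilin genes that were lower than untreated (bars, in percent) in 5 classes of transcript length (in kb), with the members of each class named above the bar. CLDN7 and AGR2 were lower in the shortest class, where 31.4% of genes were lower.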

How the data were processed

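RNA from 8 samples of MDA-MB-231 cells was extracted with Trizol, and a service company prepared the libraries, per the labels' protocols. Tools named in the submitters' processing notes are DESeq2, RSEM, Bowtie, StringTie and HISAT, with the builds GRCh38, hg38 and mm10, all without version or role. Per the file headers, the deposited tables hold mean FPKM per group, log2 fold changes and q-values, of significant genes alone. The authors' filters were read from the values. No column holds a single sample, so depth, replicates and standard deviations cannot be given, and no model was fitted. Strandedness is not stated, so overlapping genes cannot be separated.

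Members were matched by symbol. The standard error was the absolute log2 fold change over the normal quantile of the q-value taken as a two-sided p-value, with a q-value of 0 taken as 1e-300. It was also computed on data simulated under an unshrunken Wald test, which cannot show whether that test was used here. The members and the 13 gene lists (304 genes, all matched to RefSeq symbols) were chosen with earlier results of these data known. Lists are given by counts and medians, without a test. Named are all members and, of each list, every listed gene where at most 5 others are listed, otherwise the 4 with the smallest q-value. A likeness rule, for members in 2 tables, named none. Transcripts came from GENCODE release 29, taking the longest coding sequence per gene (2866 of 2885 brazilin genes matched), and positions and promoters from RefSeq (GRCh38.p14). Coding sequences of 76 genes were searched with BLAST+ 2.17.0 at 98% identity, a copy being near-identical when it covered at least 80%. Scripts ran in Python 3.11.15.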

Additional observations from a re-analysis of the deposited data

How the results depend on the processing

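Of the settings tried on the members, 22 of 25 gave the same direction and a value on the same side of 0.5 on the log2 scale, or a count within 1.5 times. Some could not have moved a member. Taking off the median offset (-0.09 for brazilin, -0.01 for acetylated brazilin) is such a setting, as the smallest member change is -0.80. The exceptions among the 25 settings concern the 2 members higher with brazilin. Of these, 1 remained with q under 0.001 (ESRP2), 1 with an absolute log2 fold change of at least 1 (SERPINB5) and 1 at a minimum of 1 FPKM in either group (ESRP2). The members lower with brazilin went from 3 to 2 at an absolute log2 fold change of at least 1, where OCLN dropped out. That loss counts as the same only because it is just within 1.5 times. Counts of genes lower or higher on the 13 lists with brazilin moved by over 1.5 times in 37 of 182 settings, 19 of them at the minimum of 1 on the log2 scale, which leaves fewer genes. There the medians of the tight junction, adherens junction and ETS lists turned positive (0.18, 1.13 and 0.19). The ratio of FPKM means for lists was added after the data were seen, and it left 1 lower splicing regulator of 3, 1 lower clade B serpin of 2 and 1 lower transition factor of 2. Any CANNTG in place of the E-box sites was present in 7 of 7 member windows and in 61.8% of all windows. The planned settings for differences between compounds were not run, since no member stands in 2 tables. No paired analysis was possible because the tables hold group means only, and for the same reason no sample could be left out. Depth is unknown, which limits ESRP2 and SERPINB5 most.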
